A study of Mus musculus with 6 samples.

Results

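The enzymes that metabolize trichloroethylene (TCE) were examined in mouse liver after short oral dosing. TCE is a chlorinated solvent that the liver processes along an oxidative route and a glutathione route. In the oxidative route, cytochrome P450 enzymes of the endoplasmic reticulum, chiefly Cyp2e1, oxidize TCE. Alcohol and aldehyde dehydrogenases convert chloral to trichloroethanol and trichloroacetic acid, and trichloroethanol can be joined to glucuronic acid. In the glutathione route, glutathione transferases attach glutathione to TCE, and the conjugate is cut back to a cysteine conjugate. The list held 10 genes, taken for their place in these routes and found on the array by gene symbol. Of these, 9 were measured, by 11 probes, among 13275 detected genes in all. Ugt1a1, a glucuronosyltransferase, had 0 probes under its symbol.

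Liver RNA came from male B6C3F1 mice aged 7 weeks. The control group of 3 mice was given corn oil and the TCE group of 3 mice was given TCE at 1000 mg/kg, by mouth, for 5 days. Each mouse had a 1-colour array of its own. Control mouse 1 was on slide 1 and in scan 1, and the other 5 arrays shared slide 2 and scan 2. Signals are log2 values of the background-corrected intensity after quantile normalization, so that a difference of 1 is a doubling. A probe was called detected when the scanner software flagged it well above background in every mouse of the control group, of the TCE group or of both. All 11 probes of the enzymes were well above background on all 6 arrays, and 0 of their spots were saturated. Whole liver was used, in which fewer cells of a type and less RNA per cell cannot be told apart. The hepatocyte markers were at a mean log2 signal of 17.29, 17.30 and 17.24 in control mice 1, 2 and 3 and 17.24, 17.18 and 17.28 in TCE mice 1, 2 and 3 (12 detected genes), with 0 of the 12 called. The groups did not overlap for 3 that were lower and 1 that was higher. Over all detected genes 10.8% were separated downward in this way and 17.1% upward. Of the detected markers of Kupffer cells (9), endothelial cells (8), stellate cells (7), bile duct cells (3), smooth muscle cells (3) and leukocytes (6), 0 were called. The mean was lower in the TCE group for 8 of the Kupffer cell, 8 of the endothelial, 3 of the stellate, 3 of the bile duct, 2 of the smooth muscle and 2 of the leukocyte markers. The smooth muscle markers had a mean log2 signal of 8.38, 8.33 and 7.76 in control mice and 7.46, 7.15 and 7.66 in TCE mice. This fall was not shared by all 3 markers, whose log2 differences had a median of -0.24 and a highest value of 0.40. Among them Cnn1, well above background in 0 TCE mice, was not called (limma adjusted p = 0.114). Its lower bound was a 1.67-fold fall with the scanner's background subtraction and a 1.37-fold fall with normexp background correction. Its dim TCE values are part of the mean signal. The endothelial markers had a mean log2 signal of 10.58, 10.60 and 10.43 in control mice and 9.74, 10.56 and 10.47 in TCE mice, TCE mouse 1 lying apart.

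Of the 9 measured enzymes, 0 were higher and 0 were lower in the TCE group at an adjusted p of 0.05 or less (limma, two-sided, adjusted over all detected probes). Over all detected genes 1.8% were higher and 0.588% lower by the same rule, 2.39% together. Without adjustment, 2 of the 9 enzymes, Adh1 and Ephx1, had a limma p under 0.05, against 19.1% of all detected genes. The methods' t-test placed the same number, 2, under an unadjusted p of 0.05 and 0 after adjustment. The groups did not overlap for 2 enzymes that were higher, Adh1 and Ephx1, and for 2 that were lower, Cyp2f2 and Aldh2, where 17.1% of all detected genes were separated upward and 10.8% downward. The median log2 difference of the 9 enzymes was 0.08, beside 0.02 for all detected genes. The differences of the brightest probe of each enzyme ran from -0.41 to 0.54. With 3 mice per group the exact permutation test (two-sided) of a single probe cannot give a p below 0.1.

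**Figure D1:**
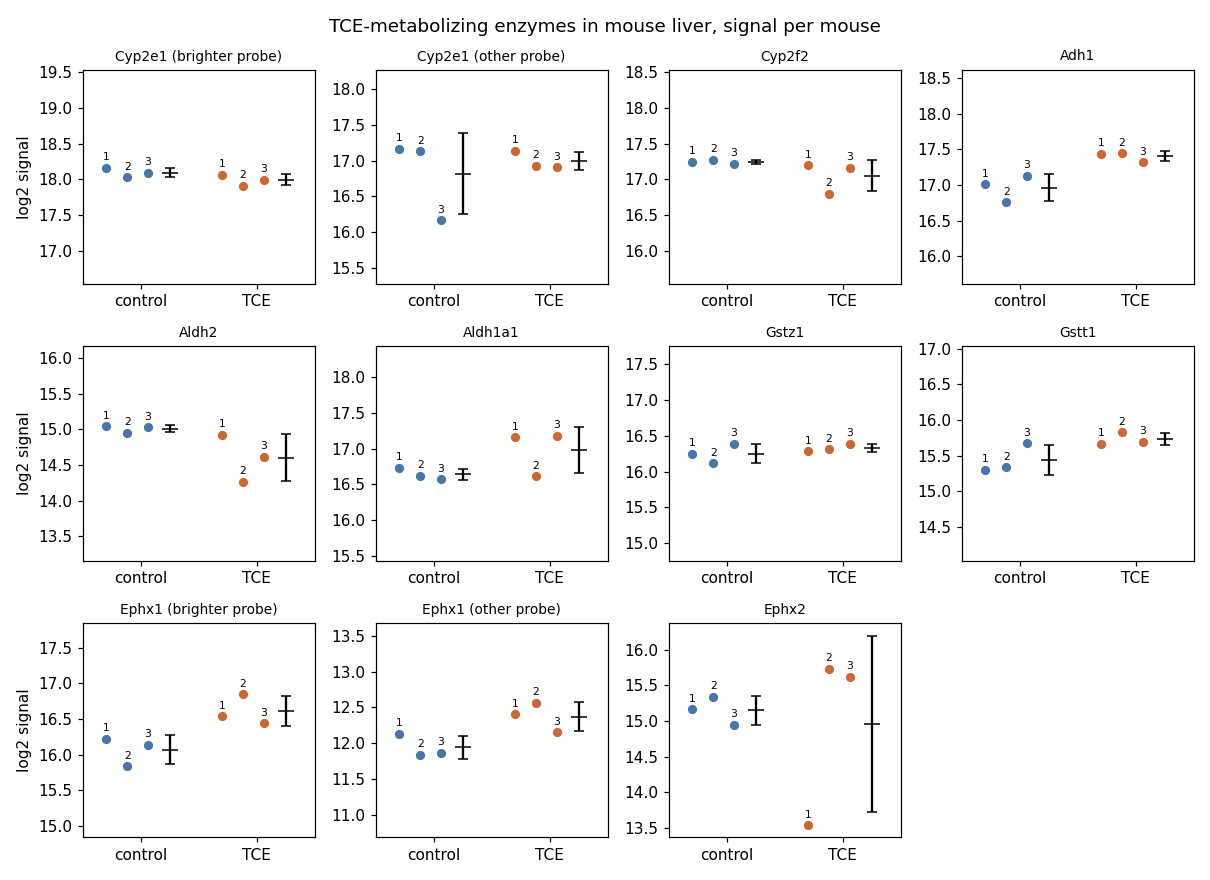
Log2 signal of each probe of the TCE-metabolizing enzymes (vertical axis, a window of 3 log2 units in every panel) in control and TCE mice, with the mouse number beside each point and the mean ± SD of 3 mice in black. TCE mouse 1 lies far below the other mice for Ephx2, as control mouse 3 does for the other Cyp2e1 probe.

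Cyp2e1 is the P450 that carries out most TCE oxidation at low exposure and sits mainly in hepatocytes around the central vein. Its brighter probe (mm9, chr7:147960628-147960687) gave 18.16, 18.03 and 18.09 in control mice 1, 2 and 3 and 18.06, 17.91 and 17.996 in TCE mice 1, 2 and 3. The groups overlapped. The log2 difference was -0.10, with a 95% interval from -0.37 to 0.16 (limma adjusted p = 0.669), so that a fold change below 0.776 or above 1.12 lay outside the interval. Scaling by the 75th percentile gave a difference of -0.27 and normexp background correction gave -0.04, neither called (limma adjusted p = 0.337 and 0.875), while the mean over both probes turned the sign, to 0.04 (limma adjusted p = 0.932). With single mice left out, the difference of the brighter probe ran from -0.14 to -0.06, the latter without TCE mouse 2. The other Cyp2e1 probe (chr7:147956922-147956981) read 17.16, 17.13 and 16.16 in the control mice and 17.14, 16.93 and 16.91 in the TCE mice. Control mouse 3 was low with this probe and not with the brighter one, and the difference of 0.17 (limma adjusted p = 0.793) turned to -0.15 without that mouse. A gap of at least 0.97 below both other control mice was found for control mouse 3 in 196 of 22718 detected probes. Among the 3984 of them at least as bright as the dimmest enzyme probe, it was found in 20. The probe that set control mouse 3 apart is printed here 5′ to 3′, since the transcript stretches read by the 2 probes gave unlike values in 1 mouse.
Cyp2e1 other probe: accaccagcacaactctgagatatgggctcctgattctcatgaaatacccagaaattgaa

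Of the 3 detected genes whose pattern over the 6 mice lay nearest to the brighter Cyp2e1 probe, after each was centred on its own mean, Extl3 had a root mean square difference of 0.03 log2 units, as did Rpgrip1 and Reps2. Cyp2f2, a P450 best known from the lung that also oxidizes small solvents, gave 17.25, 17.27 and 17.22 in control mice 1, 2 and 3 and 17.19, 16.80 and 17.16 in TCE mice 1, 2 and 3 (chr7:27918570-27918629). All 3 TCE mice lay below the controls, TCE mouse 2 farthest. The log2 difference of -0.19 was not called (limma adjusted p = 0.525), and without TCE mouse 2 it was -0.07, while the 75th percentile gave -0.33.

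Around the oxidative route, the 5 detected partners of microsomal P450s were all higher on average, with a median log2 difference of 0.79, and 0 of them passed the test. Por, which passes electrons to P450s, was at 13.95, 13.70 and 13.79 in control mice and 14.97, 14.58 and 14.26 in TCE mice, a difference of 0.79 (limma adjusted p = 0.114). Of 14 other detected hepatic P450s, listed for TCE or similar solvents, 3 fell and 0 rose, and 12 had a lower mean in the TCE group. Whether each of them acts on TCE was not examined here. The difference farthest from 0 was upward and not called, that of Cyp2b10 (2.48, limma adjusted p = 0.0885), whose groups did not overlap. Cyp2c37 fell by 1.03, Cyp2c54 by 0.91 and Cyp1a2 by 0.90 on the log2 scale (limma adjusted p = 0.0207, 0.0200 and 0.0354). Leaving out 1 mouse in turn ended these calls in 5, 6 and 6 of 6 cases. Other probes were lower and not called, at -0.79 for Cyp2c37 and at -1.13 and -0.92 for Cyp2c54 (limma adjusted p = 0.185, 0.143 and 0.0685). Close relatives in the Cyp2c family could share signal. Cyp2e1 is placed beside other genes of the same zone: of 11 detected pericentral markers, which include Cyp2c37 and Cyp1a2, 4 fell and 11 had a lower mean in the TCE group, with a median log2 difference of -0.90. Slc1a2, a glutamate transporter, fell by 1.65 and Lgr5, a Wnt receptor component, by 1.11 (limma adjusted p = 0.00746 and 0.0351), calls that ended in 0 and 5 of 6 such cases; another Slc1a2 probe fell by 1.30 (limma adjusted p = 0.0282). Lgr5 was at 6.34, 6.47 and 6.39 in TCE mice, and with normexp background correction its difference was -0.70 and no longer called. The mean signal of these markers was 12.66, 12.89 and 12.53 in control mice and 11.89, 11.77 and 11.95 in TCE mice. Of 13 detected periportal markers 0 passed the test, and their differences ran from -1.20 to 0.82 with a median of -0.02. Whether Cyp2e1 differed from these markers was not tested.

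Adh1 is the main alcohol dehydrogenase of the liver. It was at 17.01, 16.76 and 17.13 in control mice 1, 2 and 3 and at 17.44, 17.45 and 17.32 in TCE mice 1, 2 and 3 (chr3:137952821-137952880). Every TCE mouse lay above every control mouse. The log2 difference of 0.44 had a 95% interval from 0.11 to 0.76 and missed the threshold (limma adjusted p = 0.171; exact permutation p = 0.1). Aldh2, the mitochondrial aldehyde dehydrogenase, was at 15.05, 14.95 and 15.03 in control mice and at 14.92, 14.26 and 14.62 in TCE mice. All 3 TCE mice lay below the controls, TCE mouse 1 by a small gap. The log2 difference was -0.41, with an interval from -0.84 to 0.03 (limma adjusted p = 0.308), and without TCE mouse 2 it was -0.24. The Aldh2 probe covers 554 bases of the genome (chr5:122022137-122022690, minus strand) with a length of 60 bases, so its ends lie in blocks that are apart in the genome and joined in the mRNA. Its sequence is printed 5′ to 3′ because this is the only 1 of the 11 probes that spans such a gap.
Aldh2 probe: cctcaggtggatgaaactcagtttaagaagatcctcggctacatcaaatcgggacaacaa

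Aldh1a1, a cytosolic aldehyde dehydrogenase that also makes retinoic acid, was at 16.73, 16.62 and 16.57 in control mice and 17.16, 16.61 and 17.18 in TCE mice (chr19:20717764-20717823). TCE mouse 2 lay among the controls and the other TCE mice lay above them. The log2 difference was 0.34 (limma adjusted p = 0.382), and without TCE mouse 2 it was 0.53. Among 23 other detected alcohol and aldehyde enzymes, 2 rose and 1 fell, with a median difference of 0.06. Aldh3a2, which oxidizes long-chain fatty aldehydes, rose by 1.87 on the log2 scale, from 9.86, 9.84 and 10.01 to 11.62, 12.22 and 11.47 (limma adjusted p = 0.0145), and leaving out 1 mouse in turn ended the call in 4 of 6 cases. Dhrs4, a carbonyl reductase, rose by 1.09 and Aox3, an aldehyde oxidase, fell by 1.15 (limma adjusted p = 0.0287 and 0.0454), calls that ended in 5 and 6 of these cases.

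On the glutathione route, Gstt1, a theta class transferase known for conjugating small halogenated solvents, was at 15.30, 15.34 and 15.67 in control mice and 15.67, 15.83 and 15.70 in TCE mice (chr10:75246560-75246619). Control mouse 3 lay just above the lowest TCE mouse, and the log2 difference of 0.29 was not called (limma adjusted p = 0.343). Gstz1, which isomerizes maleylacetoacetate in tyrosine breakdown and also dechlorinates dichloroacetic acid, was at 16.25, 16.11 and 16.39 in control mice and 16.28, 16.31 and 16.39 in TCE mice (chr12:88505612-88505671). Its groups overlapped and its difference of 0.08 had an interval from -0.21 to 0.37 (limma adjusted p = 0.769), moving between 0.01 and 0.15 as single mice were left out. Of the 9 detected genes of tyrosine catabolism 0 passed the test. Of 18 other detected glutathione transferases, 5 rose and 0 fell by the brightest probe, and the median difference was 0.32. Gstp1 was not called by its brightest probe (-0.64, limma adjusted p = 0.0581), whereas another of its probes fell by 0.94 (limma adjusted p = 0.0268). Gstm1 was likewise not called by its brightest probe, which is placed on chr5 (0.64, limma adjusted p = 0.0683), whereas another, placed on chr3, rose by 0.85 (limma adjusted p = 0.0459). In all, 6 transferases rose and 1 fell with the mean over probes, with normexp, with array weights and with trended variance. The count that rose was 1, 0 and 0 without control mice 1, 2 and 3 and 0, 2 and 2 without TCE mice 1, 2 and 3, and 0 fell. The theta class relatives of Gstt1 were among the 5 that rose: Gstt2 rose by 1.16, from 11.64, 11.42 and 11.47 to 12.66, 12.79 and 12.58 (limma adjusted p = 0.0111), and Gstt3 by 0.98 (limma adjusted p = 0.0459). Gsta2 rose by 1.14, Gstm4 by 0.98 and Gstm3 by 0.82 (limma adjusted p = 0.0431, 0.0459 and 0.0492). Another Gstm4 probe, at 0.80, was not called (limma adjusted p = 0.0810), and another Gstm3 probe rose by 1.34 (limma adjusted p = 0.0145). Leaving out 1 mouse in turn ended the call of Gstt2 in 3 of 6 cases, those of Gstt3 and Gstm4 in 5 and those of Gsta2 and Gstm3 in 6. Whether Gstt1 differed from Gstt2 or Gstt3 was not tested. Of 14 detected genes that process cysteine conjugates, 1 was called: Nat8, which N-acetylates cysteine conjugates to mercapturates, fell by 1.59 (limma adjusted p = 0.0373), a call that ended in 6 of 6 such cases. Of 12 detected genes of glutathione supply 0 were called, with differences from -0.63 to 1.68.

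Ephx1, the microsomal epoxide hydrolase, had 2 probes. The brighter one (chr1:182919689-182919748) gave 16.22, 15.84 and 16.14 in control mice 1, 2 and 3 and 16.54, 16.84 and 16.44 in TCE mice 1, 2 and 3. The other (chr1:182924124-182924183) gave 12.13, 11.83 and 11.86 in control mice and 12.40, 12.56 and 12.15 in TCE mice. With both probes all TCE mice lay above all control mice, TCE mouse 2 highest. The log2 differences were 0.54, with an interval from 0.14 to 0.94, and 0.43, with an interval from 0.05 to 0.81, and neither passed the threshold (limma adjusted p = 0.169 and 0.229). Ephx2, the soluble epoxide hydrolase, was at 15.16, 15.34 and 14.94 in control mice and at 13.54, 15.73 and 15.62 in TCE mice (chr14:66703214-66703273). TCE mouse 1 was below all controls, whereas TCE mice 2 and 3 were above all of them. The log2 difference of -0.18 had an interval from -1.58 to 1.21 (limma adjusted p = 0.900), and without TCE mouse 1 it was 0.53 (limma adjusted p = 0.272), while array weights gave -0.67. TCE mouse 1 was also the mouse with the lowest endothelial marker mean, whose part in this value was not tested. A gap of at least 2.08 below both other TCE mice was found for TCE mouse 1 in 32 of 22718 detected probes. Among the 3984 of them at least as bright as the dimmest enzyme probe, it was found in 4. Of 3 other detected epoxide hydrolase relatives 0 were called.

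Ugt1a1, which glucuronidates bilirubin, shares its last exons with the other genes of the Ugt1a locus, whose enzymes act on many drugs. A probe filed under Ugt1a6a (chr1:90116514-90116573) lists the Ugt1a1 transcript among the 4 it matches, so its value cannot be assigned to 1 of them. It was at 6.23, 5.98 and 6.10 in control mice and 5.96, 6.55 and 6.49 in TCE mice, with a difference of 0.23 (limma adjusted p = 0.567). A Ugt1a6b probe of the same locus (chr1:90115493-90115552) lists 4 transcripts too, in an annotation that does not name the Ugt1a1 transcript. Exon positions were not analysed here, so whether this probe also reads Ugt1a1 was not tested. The Ugt1a6b probe was at 16.62, 16.67 and 16.63 in control mice and 17.00, 16.88 and 16.59 in TCE mice, a difference of 0.18 (limma adjusted p = 0.550). Of 16 other detected glucuronidation genes, 2 fell and 0 rose: Ugt2b1 by 1.21 and Ugt2a3 by 0.99 (limma adjusted p = 0.00964 and 0.0207). Leaving out 1 mouse in turn ended the call of Ugt2b1 in 0 of 6 cases and that of Ugt2a3 in 6.

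The lists around the products of these enzymes were counted in the same way. Trichloroacetic acid activates the receptor PPARalpha, and of 28 detected PPARalpha targets 19 rose and 0 fell, with a median difference of 1.89, also with 1 gene at its lower bound. The count was 15, 11 and 11 without control mice 1, 2 and 3, 12, 13 and 16 without TCE mice 1, 2 and 3, 7 with replicate number as a block, 8 with all probes tested and 5 by the methods' t-test after adjustment. Of 16 genes for anion transport and pyruvate handling, Pdk4, a kinase that restrains pyruvate oxidation and is also on the PPARalpha list, rose by 2.96 and Slco1a4, an organic anion carrier, fell by 1.24 (limma adjusted p = 0.00657 and 0.0328). Of 18 NRF2 targets 3 rose, of which Gsta2 and Gstm3 are among the 5 transferases counted above, of 10 CAR and PXR targets 2 rose, of which Gstm3 is 1, and of 6 AHR targets 1 fell, Cyp1a2. The mean was higher in the TCE group for 15 NRF2, 9 CAR and PXR and 4 AHR targets. It was lower for 3, 1 and 2 of them, and the median differences were 0.31, 0.96 and 0.21. Without control mice 1, 2 and 3 and TCE mice 1, 2 and 3 in turn, 0, 0, 1, 0, 1 and 0 of the NRF2 targets and 0, 0, 1, 0, 2 and 2 of the CAR and PXR targets rose. Among called genes only, Me1, which supplies NADPH, had the largest rise on the NRF2 list, 1.34 (limma adjusted p = 0.0261), below the uncalled G6pdx at 1.48 (limma adjusted p = 0.0790); 2 other Me1 probes rose by 1.73 and 1.40 (limma adjusted p = 0.0114 and 0.0279). Akr1b7, an aldo-keto reductase whose probe was well above background in 0 control mice, was at least 3.36-fold higher with the scanner's background subtraction (limma adjusted p = 0.0157) and at least 1.55-fold higher with normexp, where it was not called (limma adjusted p = 0.133). Cyp2b10 is also on the CAR and PXR list and was not called. Leaving out 1 mouse in turn ended the calls of Pdk4, Slco1a4, Me1 and Akr1b7 in 0, 6, 5 and 4 of 6 cases. None of the 9 measured TCE enzymes is on these 5 lists, which reflects how the lists were drawn up and is not a result.

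**Figure D2:**
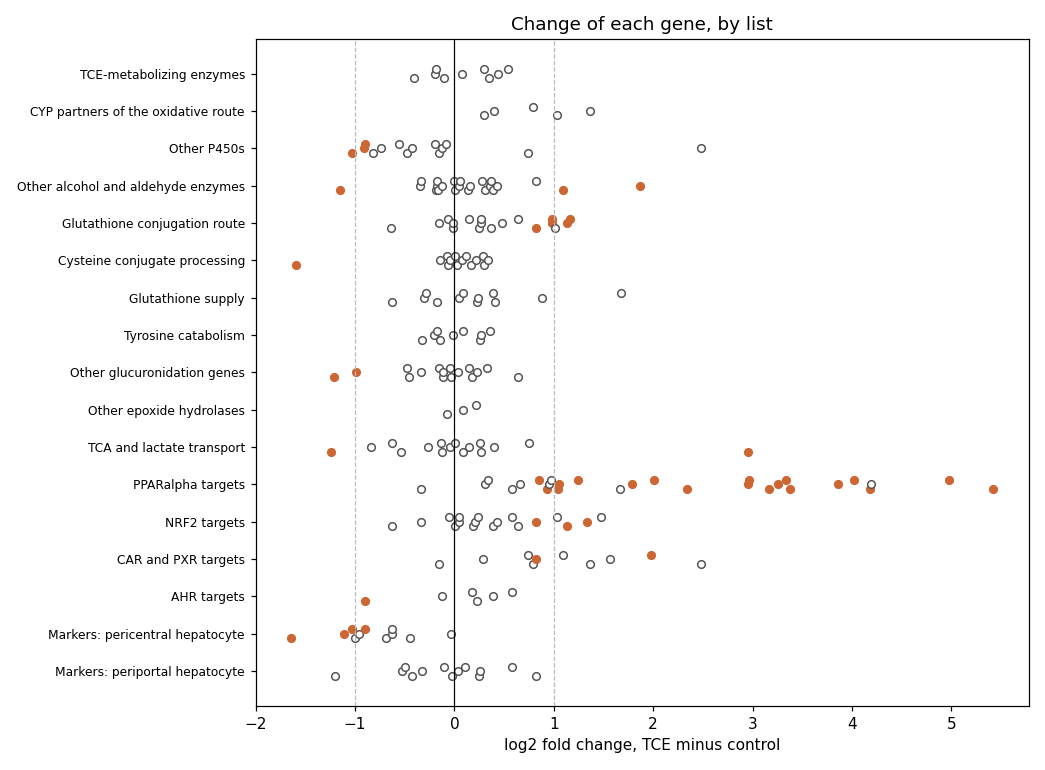
Log2 fold change (horizontal axis, TCE minus control) of each detected gene, 1 point per gene by its brightest probe, for the TCE-metabolizing enzymes and the other lists; filled points passed an adjusted p of 0.05 and dashed lines mark a 2-fold change. The 9 enzymes lie between -0.41 and 0.54 with 0 filled points, while 19 of 28 PPARalpha targets are filled.

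On slide 2 alone, which leaves control mice 2 and 3 against the 3 TCE mice and equals the fit with slide as a block, 0 of the 9 enzymes were called. The differences there were -0.07 for Cyp2e1, -0.19 for Cyp2f2, 0.46 for Adh1, -0.39 for Aldh2, 0.39 for Aldh1a1, 0.08 for Gstz1, 0.23 for Gstt1, 0.62 for Ephx1 and -0.18 for Ephx2.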

How the data were processed

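Per the labels, each of the 6 livers was hybridized to an array of its own. The authors deposited scanner output of Agilent Feature Extraction 10.7.1.1, an intensity per spot with background subtracted, and a table of group means as quantile-normalized log2 values, which was used as an alternative. Its 6 flag columns for single samples were not used, because their column names conflict with the sample titles. Control spots were left out, 59305 spots of 55681 probes remained, and spots flagged as outliers (123 to 189 per array) were set to missing. Log2 intensities were averaged over the spots of a probe and quantile normalized without a pseudocount. Probe positions (mm9) come from the deposited annotation. Exon and UTR positions of the probes were not analysed here.

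A probe counted as well above background on an array when every spot that was not an outlier carried the flag, which gave 22718 detected probes. The handling of replicate spots was not specified beforehand. In all, 5 forms of it were tried with their counts in view; the form used is the one nearest the written design, the other 4 gave 22719 to 22760 probes, and they are reported as alternatives chosen after seeing the data.

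Groups were compared with limma 3.58.1 in R 4.3.3 with a moderated linear model (lmFit, then eBayes; two-sided; no covariate beside the group) across all genes, with Benjamini-Hochberg adjustment over detected probes, and members with an exact permutation test over all 20 ways to choose 3 of 6 mice. The number of arrays limits the precision. Among several detected probes, the brightest on average stood for the gene. For a group in which 0 arrays showed a probe well above background, the fold is a lower bound, taken against the higher of each array's lowest signal called well above background and the probe's own. Genes named are all members, up to 4 genes of each other list with the largest changes among those called, and the 3 genes nearest to Cyp2e1; the 4 of the PPARalpha list are counted and not named. Por, the Ugt1a6a and Ugt1a6b probes, Cnn1, Gstp1, Gstm1, G6pdx and Cyp2b10 were added after their values were seen. The members and lists were chosen with earlier results of these data known. The procedure was tested on simulated data, of which no outcome is reported here. Alternatives covered normalization, background correction, filters on dim probes, outlier spots, replicate and slide blocks, array weights, variance model, test, probe choice, source of values and each mouse left out.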

Additional observations from a re-analysis of the deposited data

How the results depend on the processing

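Of the 9 measured enzymes, 0 passed an adjusted p of 0.05 under any alternative with an adjusted test. Without adjustment, the methods' t-test put Adh1 (0.44) and both Ephx1 probes (0.54 and 0.43) under a p of 0.05. The sign turned for Cyp2e1 with the mean over probes (0.035), for its other probe with 1 mouse left out (range -0.15 to 0.34; control mouse 3) and for Ephx2 (range -0.57 to 0.53; TCE mouse 1); the cause was not tested. Genes called over the whole array numbered 239 higher and 78 lower. They were 60 and 12 with all probes tested, 106 and 22 with slide as a block, 367 and 169 with array weights, 1604 and 914 by the methods' t-test unadjusted and 29 and 8 adjusted, while the lower count was 125 with trended variance and 136 with the mean over probes. With 1 mouse left out they were 80 to 135 higher and 11 to 57 lower, and 12 to 17 of the 20 called genes named outside the members lost their call. With replicate number as a block, 40 and 5 genes were called and 19 of these 20 lost their call; deviations of mice with the same number correlated at 0.09, 0.01 and -0.09, so the numbers were not taken as pairs. The 4 other rules for replicate spots in detection, chosen after seeing the data, gave 238 or 239 higher and 78 lower genes, and 0 of the 20 lost their call. With all probes tested 17 of them lost it and by the adjusted methods' t-test 20. Normexp ended the calls of Gstt3, Akr1b7 and Lgr5, and the 75th percentile that of Aox3. Signal near background is measured imprecisely, which touches Akr1b7, Lgr5 and the Ugt1a6a probe.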
